A study of Homo sapiens with 18 samples.

Results

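The mitochondrial ribosomal proteins were examined in LNCaP cells, a human prostate cancer line that responds to androgen. Members are the genes whose symbol is MRPL or MRPS followed by a number and, at most, 1 letter, with at least 10 estimated counts summed over all libraries. The rule gave 78 of the 34912 genes in the deposited tables, and no matching gene was lost to the count minimum, since the lowest sum was 1410. By current structural knowledge 51 of them encode proteins of the large subunit and 26 proteins of the small subunit. MRPS36 was placed in neither, because its product is now known as a component of the 2-oxoglutarate dehydrogenase complex.

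Mitochondria translate their own few mRNAs, all of them for subunits of the oxidative phosphorylation complexes or ATP synthase, on a ribosome of their own. Its rRNAs are made inside the organelle, whereas every one of its proteins is encoded in the nucleus, made in the cytosol and imported. Some of these proteins have relatives in the bacterial ribosome, and others were added in the mitochondrial lineage, so that the particle is richer in protein than its bacterial counterpart. In prostate epithelium mitochondria are known for an unusual citrate metabolism that responds to androgen.

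The study crossed siRNA pools against 2 transcription factors, NFYA (the NF-Y subunit that recognises the CCAAT box) and KLF5 (a zinc-finger factor), with the synthetic androgen R1881. All cells were kept in 5% charcoal-stripped serum for 48 h, which removes steroids, and then received 10 nM R1881 or the vehicle (96% ethanol) for 24 h. The groups were siNFYA with R1881, siNFYA with vehicle, siKLF5 with R1881, siKLF5 with vehicle, control siRNA with R1881 and control siRNA with vehicle. Each has 3 labelled samples, and siKLF5 vehicle replicate 1 was not analysed here, which leaves 17 libraries and n = 2 in that group. All libraries come from 1 cell line. The labels do not tell whether the samples of a group were grown apart, so p-values measure the spread between these samples, which may be technical.

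Library totals ran from 4416653 to 6872421 estimated counts. NFYA measured 53.6 to 58.7 CPM (counts per 1000000) with siNFYA and R1881, against 84.5 to 89.7 CPM with control siRNA and R1881, and 44.0 to 48.0 CPM with siNFYA and vehicle, against 68.3 to 73.3 CPM with control siRNA and vehicle. KLF5 measured 11.4 to 15.2 CPM with siKLF5 and R1881, against 25.3 to 31.9 CPM with control siRNA and R1881. In vehicle KLF5 was low in both, at 0.932 and 3.03 CPM with siKLF5 and 3.26 to 4.91 CPM with control siRNA, and that difference did not pass (adjusted p = 0.149, edgeR). Luminal markers such as KLK3, KRT8 and KRT18 were present in every group, while 4 basal epithelial markers together reached at most 0.468 CPM in any library. In siNFYA vehicle replicate 3, 89.4% of all counts fell on transcripts annotated as protein-coding, against 91.2 to 93.0% in the other 16 libraries, and counts without it are given where they matter.

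The promoters of the members that changed most, or that differed with siNFYA, are shown first, because NF-Y binds CCAAT and because members with opposite responses can be compared by eye. Each line gives the 120 bases before the RefSeq start of the gene (GRCh38.p14), 5′ to 3′ on the strand of the gene, and capitals mark any of 5 motifs on either strand. The motifs were CCAAT (bound by NF-Y), the GC box GGGCGG (bound by SP and KLF factors), the ETS core CCGGAAG, the NRF1 core TGCGCA and the YY1 core AAGATGG. Positions count back from the start, with -1 as the base before it. MRPS18A, MRPL49, MRPS35 and MRPL33 rose with R1881 under every siRNA, MRPS27 and MRPS25 fell, and MRPL4 and MRPS26 were higher with siNFYA in vehicle.
MRPS18A (chr6:43687792-43687911, minus strand): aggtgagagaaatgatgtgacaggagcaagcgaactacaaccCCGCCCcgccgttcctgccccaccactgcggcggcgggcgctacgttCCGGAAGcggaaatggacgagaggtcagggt
MRPL49 (chr11:65122063-65122182, plus strand): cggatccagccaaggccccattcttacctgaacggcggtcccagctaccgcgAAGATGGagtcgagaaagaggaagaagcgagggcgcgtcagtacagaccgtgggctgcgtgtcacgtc
MRPS35 (chr12:27710712-27710831, plus strand): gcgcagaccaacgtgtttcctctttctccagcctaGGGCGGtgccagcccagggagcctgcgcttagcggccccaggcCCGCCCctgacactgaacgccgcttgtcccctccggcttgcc
MRPL33 (chr2:27771599-27771718, plus strand): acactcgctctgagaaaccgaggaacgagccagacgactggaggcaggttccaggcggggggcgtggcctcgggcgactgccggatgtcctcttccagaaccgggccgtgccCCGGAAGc
MRPS27 (chr5:72320241-72320360, minus strand): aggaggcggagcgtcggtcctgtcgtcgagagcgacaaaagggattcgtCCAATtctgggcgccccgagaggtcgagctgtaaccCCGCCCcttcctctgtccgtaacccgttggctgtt
MRPS25 (chr3:15065316-15065435, minus strand): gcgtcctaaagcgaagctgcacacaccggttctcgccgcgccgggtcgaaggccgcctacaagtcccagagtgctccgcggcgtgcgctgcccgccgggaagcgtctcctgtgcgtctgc
MRPL4 (chr19:10251831-10251950, plus strand): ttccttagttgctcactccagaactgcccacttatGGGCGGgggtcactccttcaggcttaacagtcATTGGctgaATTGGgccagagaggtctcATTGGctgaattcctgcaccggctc
MRPS26 (chr20:3045932-3046051, plus strand): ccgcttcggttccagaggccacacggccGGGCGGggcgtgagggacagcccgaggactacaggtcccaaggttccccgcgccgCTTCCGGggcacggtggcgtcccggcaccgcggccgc

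The MRPL4 window holds CCAAT 3 times, each read on the opposite strand as ATTGG, at positions -53, -44 and -25, with a GC box at -85. MRPS27 has a CCAAT at -71 and a GC box at -35. MRPS18A, which rose most, has a GC box at -78 and an ETS core at -31, and MRPS26 likewise has a GC box at -92 and an ETS core at -37. MRPS25 holds none of the 5 motifs in these 120 bases.

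Over the 250 bases before the start, 69 of the 78 members had an entry. CCAAT was found in 27.5% of the matched members, against 35.5% of the 9531 promoters of genes tested here and 33.0% of all 27305 promoters. The GC box stood in 55.1% of members, against 68.1% of tested genes and 42.3% of all promoters. ETS cores were found in 33.3% of members, 16.7% of tested genes and 8.82% of all. For the NRF1 core the shares were 18.8%, 12.0% and 7.05%, and for the YY1 core 10.1%, 3.59% and 3.77%. These shares describe letters and not binding. MRPL35 had no entry.

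The first question is how androgen moved these genes. In edgeR's quasi-likelihood test with p-values adjusted over all genes (passing at 0.05), R1881 raised 22 members and lowered 15 with control siRNA, raised 24 and lowered 14 with siNFYA, and raised 26 and lowered 8 with siKLF5, and this split turns to 7 higher and 45 lower, 6 and 40, and 7 and 37 when libraries are scaled by their totals instead of TMM. Scaling by totals moved the median log2 change of all genes in the control arm to -0.25, against -0.01 with TMM, so changes are best read relative to the other genes. With control siRNA 47.4% of members passed, against 62.9% of all 12601 genes tested (32.1% higher, 30.8% lower). With siNFYA it was 48.7%, against 62.1% (31.1% higher, 31% lower), and with siKLF5 43.6%, against 59.1% of 12733 genes (30.7% higher, 28.4% lower). Changes were also small, with a median absolute log2 change of 0.16 for members and 0.36 for all genes in control cells. Without siNFYA vehicle replicate 3, 24 members were higher and 13 lower in the siNFYA arm.

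**Figure D1:**
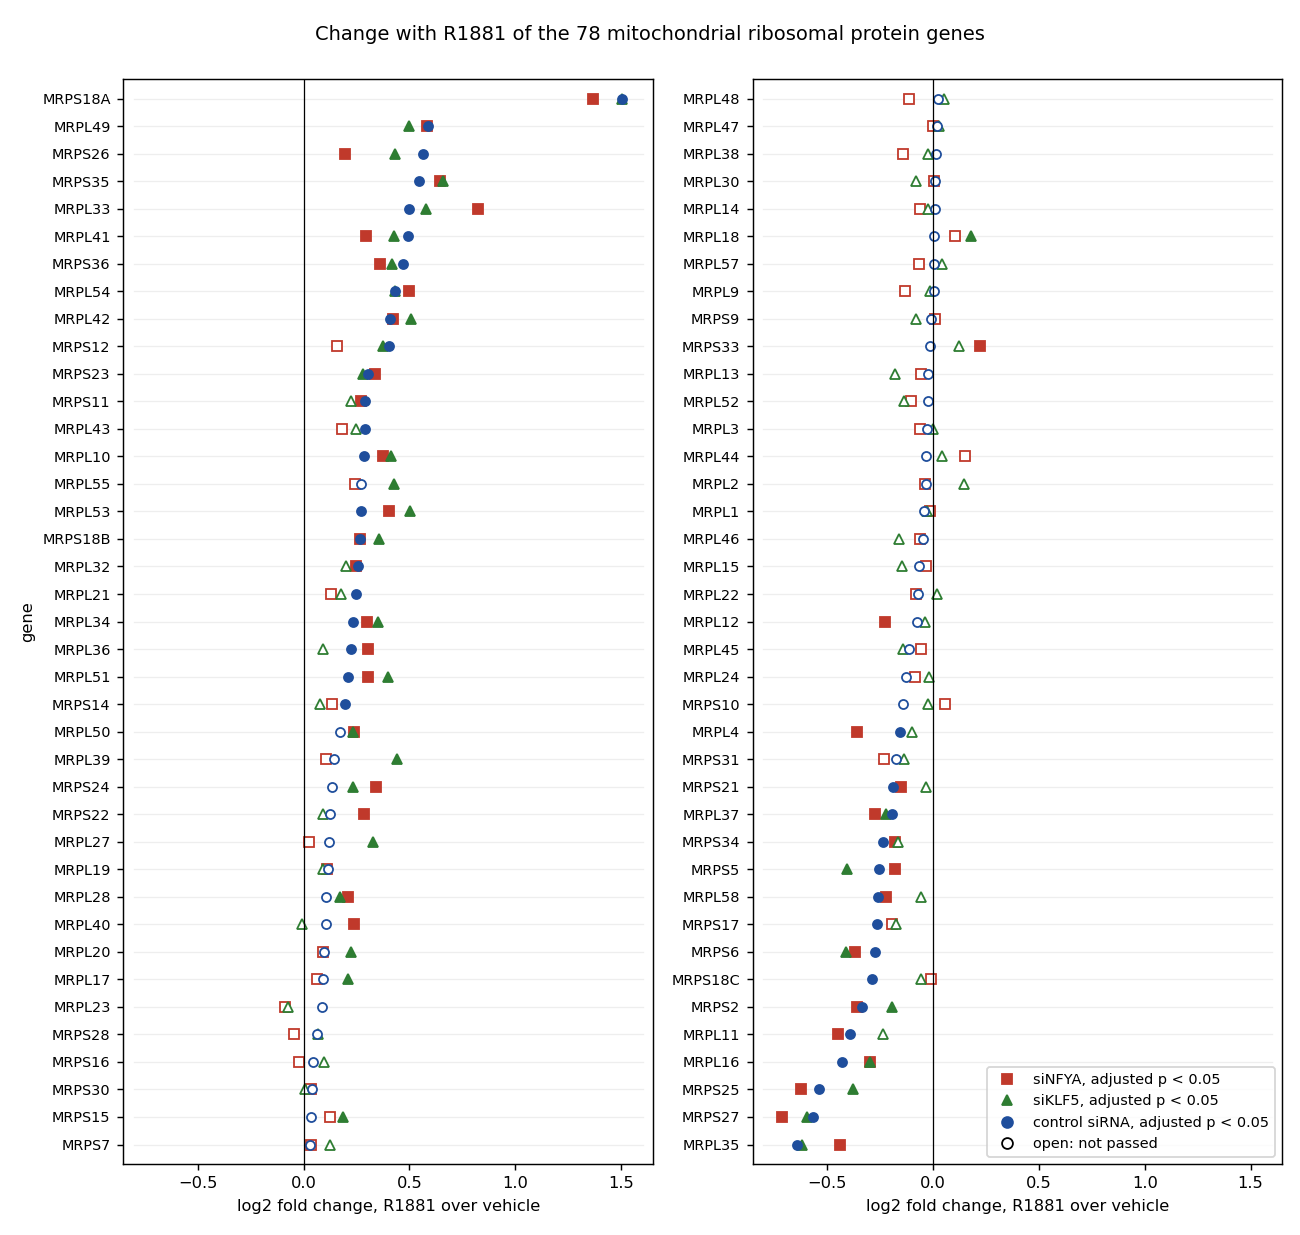
Log2 fold change of R1881 over vehicle (x axis) for each of the 78 members, ordered down 2 panels by the change in control cells, with a square for siNFYA, a triangle for siKLF5 and a circle for control siRNA, filled where the member passed (TMM scaling, edgeR). MRPS18A stands apart at 1.37 to 1.50 and all others lie between -0.71 and 0.82, while the number on each side of 0 depends on the scaling (22 higher and 15 lower in control cells with TMM, 7 and 45 with library totals).

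Split by subunit, 14 of 51 large-subunit genes were higher and 6 lower in control cells with TMM scaling (5 and 28 by library totals). In the small subunit 7 of 26 were higher and 9 lower (2 and 17 by library totals). Among the 44 members with a bacterial relative 9 were higher and 10 lower, and among the 30 without one 11 were higher and 5 lower (1 and 30, and 5 and 14, by library totals). Members placed in neither of these classes are left out of this split. No test of the difference between these classes was made.

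The 3 arms have separate vehicle and R1881 libraries. A total of 15 members were higher in all of them (MRPL10, MRPL33, MRPL34, MRPL41, MRPL42, MRPL49, MRPL51, MRPL53, MRPL54, MRPS18A, MRPS18B, MRPS23, MRPS26, MRPS35 and MRPS36) and 8 were lower in all (MRPL16, MRPL35, MRPL37, MRPS2, MRPS5, MRPS6, MRPS25 and MRPS27). No member passed in opposite directions, and 27 passed in no arm. Of the 12554 genes tested in all arms, 25.8% were higher in all, 23% lower in all and 24.5% passed in none. With library totals 5 of the 15 were still higher in all arms (MRPL33, MRPL42, MRPL49, MRPS18A and MRPS35), as were all 8 that fell, among 33 that then fell in every arm. By limma on TPM the 5 were the same, and 7 of the 8 remained lower (not MRPS25). MRPS2 and MRPS5 were not lower in all arms with DESeq2 or with no filter, nor was MRPS5 with RLE scaling, and with DESeq2 MRPL34 and MRPL53 were not higher in all arms.

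MRPS18A gave the widest response. Its product, despite the S in its name, sits in the large subunit, and it is one of several human relatives of the bacterial protein S18. CPM below are scaled over all 17 libraries together, whereas the changes and tests come from the fit of each table. With siNFYA, MRPS18A measured 63.5, 66.8 and 60.5 CPM with R1881 and 22.7, 25.5 and 25.8 CPM with vehicle. With siKLF5 it measured 70.4, 68.8 and 61.3 CPM with R1881 and 23.3 and 24.1 CPM with vehicle. With control siRNA it measured 59.2, 66.3 and 69.2 CPM with R1881 and 23.2, 23.3 and 21.9 CPM with vehicle. Every R1881 library was above every vehicle library by more than the spread within either group. The log2 change of MRPS18A was 1.37 (SE 0.084, edgeR adjusted p = 3.43e-13) with siNFYA, 1.50 (SE 0.091, adjusted p = 1.4e-12) with siKLF5 and 1.50 (SE 0.081, adjusted p = 1.9e-14) with control siRNA, or 2.58-fold, 2.83-fold and 2.84-fold. By library totals it was 1.14, 1.27 and 1.27. In control cells the other members that passed lay between -0.64 and 0.59. A single protein-coding transcript held 94.7% of the MRPS18A counts over the libraries. Neither of its relatives in the small subunit came close, with MRPS18B at 0.27 (edgeR adjusted p = 0.000616) and MRPS18C at -0.29 (adjusted p = 0.0319) in control cells.

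**Figure D2:**
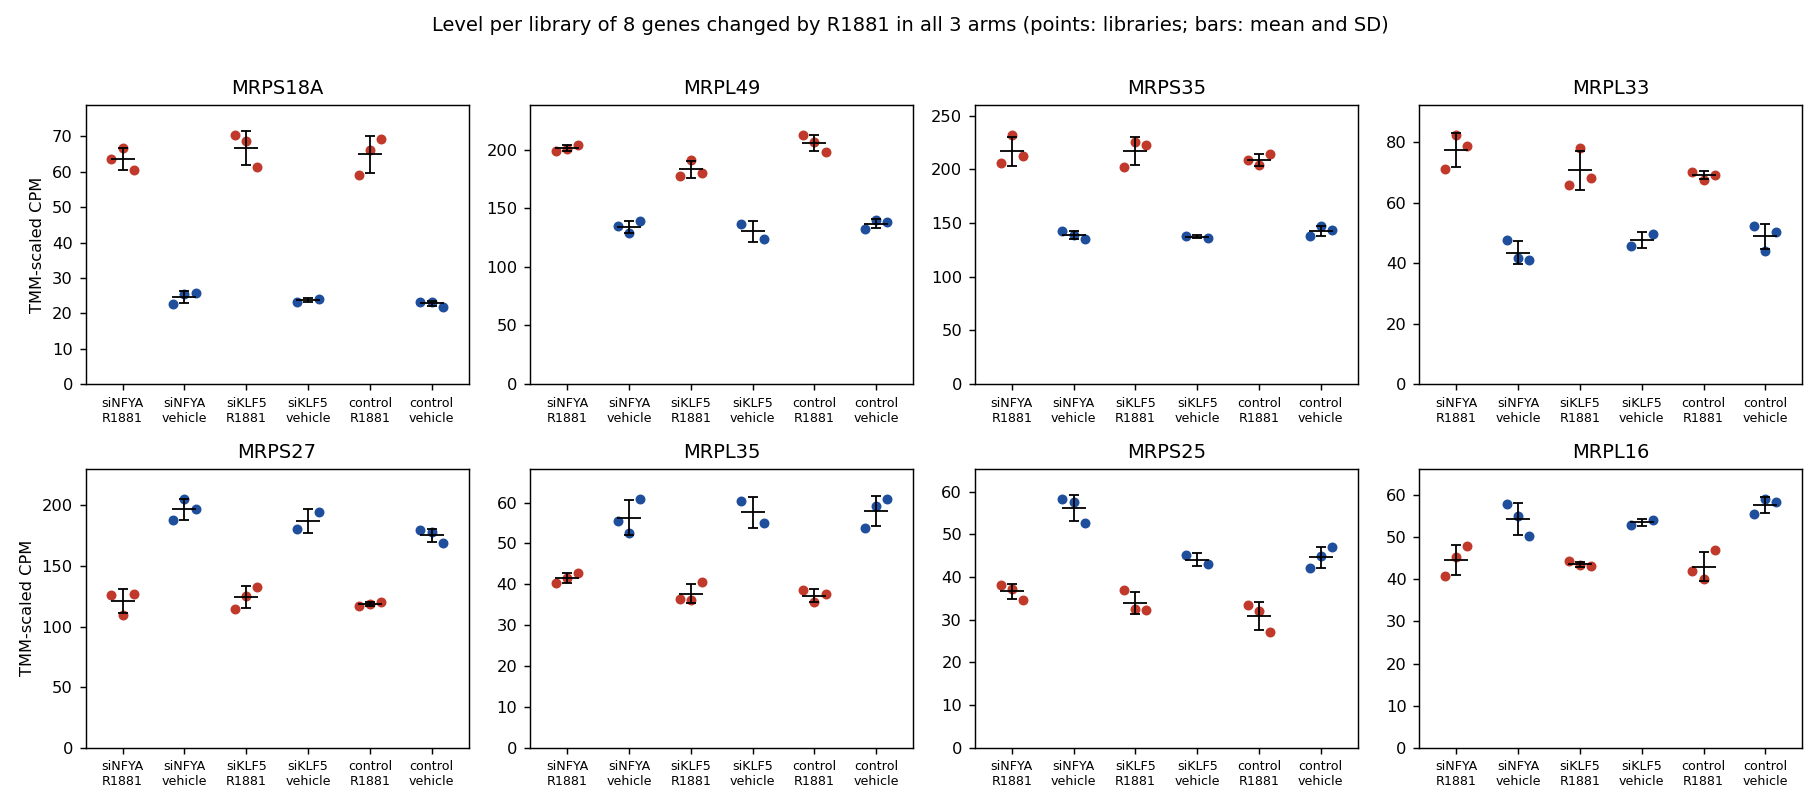
CPM per library (y axis, TMM scaling over all 17 libraries) of 8 members that passed in all 3 arms, for siNFYA, siKLF5 and control siRNA, with R1881 left of vehicle; points are libraries and bars the mean and SD of a group. In the upper row R1881 libraries lie above vehicle libraries and in the lower row below them within each arm, and MRPS18A has 59.2 to 70.4 CPM with R1881 and 21.9 to 25.8 CPM with vehicle.

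In the large subunit, MRPL49 (a protein with no bacterial relative) measured 212, 206 and 198 CPM with R1881 and 132, 140 and 138 CPM with vehicle in control cells. These libraries did not overlap, nor did those of the other arms. The log2 change of MRPL49 was 0.58 (SE 0.045, edgeR adjusted p = 2.51e-11) with siNFYA, 0.50 (SE 0.055, adjusted p = 4.97e-08) with siKLF5 and 0.59 (SE 0.043, adjusted p = 8.98e-12) with control siRNA. MRPL33, the counterpart of bacterial L33, was among the members with the most mRNA per length. It measured 71.2, 82.3 and 78.7 CPM with R1881 and 47.8, 41.8 and 40.9 CPM with vehicle in siNFYA cells, and 70.2, 67.6 and 69.2 CPM with R1881 and 52.2, 44.1 and 50.2 CPM with vehicle in control cells. R1881 libraries were the higher ones throughout, with log2 changes of 0.82 with siNFYA, 0.58 with siKLF5 and 0.50 with control siRNA (edgeR adjusted p = 1.32e-09, 2.82e-06 and 2.54e-06). The difference between the siNFYA and control responses did not pass in the interaction test (log2 0.33, SE 0.11, edgeR adjusted p = 0.175). MRPL33 counts were divided mainly between a pair of transcripts, at 57.9% and 39.1%.

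MRPL41, MRPL42 and MRPL54, large-subunit proteins without a bacterial relative, rose too. In control cells MRPL41 measured 130, 135 and 141 CPM with R1881 and 86.3, 103 and 99.3 CPM with vehicle, a log2 change of 0.49 (edgeR adjusted p = 3.79e-08). The MRPL41 libraries did not overlap, but by library totals it no longer rose in all arms. MRPL42 measured 161, 169 and 158 CPM with R1881 and 123, 125 and 120 CPM with vehicle in control cells, with log2 changes of 0.42 with siNFYA, 0.51 with siKLF5 and 0.41 with control siRNA. MRPL54 changed by 0.50, 0.43 and 0.43 in the same arms.

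In the small subunit, MRPS35 (without a bacterial relative) rose under every siRNA. It measured 206, 232 and 213 CPM with R1881 and 142, 139 and 135 CPM with vehicle in siNFYA cells, and 209, 204 and 215 CPM with R1881 and 138, 147 and 144 CPM with vehicle in control cells. No R1881 library reached down to the vehicle range in any arm. The MRPS35 log2 change was 0.64 (SE 0.048, edgeR adjusted p = 1.62e-11) with siNFYA, 0.66 (SE 0.052, adjusted p = 2.04e-10) with siKLF5 and 0.54 (SE 0.046, adjusted p = 1.75e-10) with control siRNA.

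Among the falls, MRPS27 had the largest with siNFYA, and MRPL35 the largest with siKLF5 and with control siRNA. MRPS27 is a small-subunit protein of the pentatricopeptide-repeat family of RNA-binding proteins. It measured 126, 109 and 127 CPM with R1881 and 188, 206 and 197 CPM with vehicle in siNFYA cells. In siKLF5 cells MRPS27 measured 115, 125 and 133 CPM with R1881 and 180 and 194 CPM with vehicle. In control cells it measured 117, 119 and 120 CPM with R1881 and 179, 178 and 169 CPM with vehicle. The lowest vehicle library of any arm was above the highest R1881 library. Log2 changes of MRPS27 were -0.71 with siNFYA, -0.59 with siKLF5 and -0.57 with control siRNA (SE 0.053, 0.056 and 0.052; edgeR adjusted p = 1.54e-11, 3.88e-09 and 8.39e-10).

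MRPL35, the counterpart of bacterial L35, measured 38.7, 35.6 and 37.5 CPM with R1881 and 53.7, 59.1 and 60.8 CPM with vehicle in control cells. Its groups did not overlap in any arm, and the log2 change was -0.44 with siNFYA, -0.62 with siKLF5 and -0.64 with control siRNA (edgeR adjusted p = 2.39e-05, 1.04e-06 and 5.48e-08). MRPS25, a small-subunit protein without a bacterial relative, measured 33.4, 32.01 and 27.0 CPM with R1881 and 42.1, 44.8 and 46.9 CPM with vehicle in control cells. It changed by -0.62 with siNFYA, -0.38 with siKLF5 and -0.54 with control siRNA, again without overlap. MRPL16, the counterpart of bacterial L16, changed by -0.30, -0.30 and -0.43 in the same order, and MRPS6, the counterpart of bacterial S6, by -0.37, -0.41 and -0.27. MRPL11, whose bacterial counterpart lies in the stalk base where translation factors bind, changed by -0.45 with siNFYA and -0.39 with control siRNA and did not pass with siKLF5 (-0.24).

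The summed level of the 78 members was lower with R1881 as a share of each library. It was 4666 ± 64.2 CPM of library totals with R1881 and 5173 ± 155 with vehicle in siNFYA cells (SD, n = 3 each), and 4530 ± 35.5 with R1881 (SD, n = 3) and 4913 ± 103 with vehicle (SD, n = 2) in siKLF5 cells. In control cells it was 4552 ± 28.8 CPM with R1881 and 5064 ± 44.8 with vehicle (SD, n = 3 each). The groups did not overlap in any arm, but the direction depends on the scale: with TMM the control sums were 4936 CPM with R1881 and 4653 CPM with vehicle, and in TPM (transcripts per 1000000) 7657 and 7943. These sums are shares of a library, so they do not measure an amount of RNA per cell.

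Per length, members spanned a wide range, on the TPM scale averaged over libraries. MRPL20 was highest at 344 TPM (320.6 to 393.6 over the libraries), followed by MRPL33 at 330.0 TPM and MRPL51 at 311 TPM. The ranges of these 3 overlapped, and the order of the first and second turned with treatment. MRPL33 averaged 394, 370 and 365 TPM with R1881 and 249, 295 and 295 TPM with vehicle (siNFYA, siKLF5, control siRNA), while MRPL20 averaged 335, 336 and 348 TPM with R1881 and 349, 329 and 362 TPM with vehicle. MRPS31 was lowest at 18.1 TPM (10.8 to 23.0), with MRPL50 at 21.5 TPM and MRPS10 at 30.4 TPM. MRPS31 is uncertain, because its 4 annotated pseudogene copies held counts equal to 45.3% of its own.

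The next question is what the knockdowns did. With siNFYA in vehicle, 7 members were higher than with control siRNA and none lower, which is 8.97% of members against 13.5% of all genes tested (6.67% higher, 6.79% lower). They were MRPL4, MRPL12 and MRPL23 of the large subunit and MRPS18B, MRPS25, MRPS26 and MRPS27 of the small subunit. The median log2 change of all members was 0.03, against 0.00 for all genes. The count was 3 with DESeq2 (MRPL4, MRPS25 and MRPS26), 2 by limma on TPM (MRPL4 and MRPS26), 3 without siNFYA vehicle replicate 2, 4 without control vehicle replicate 3 and 6 without siNFYA vehicle replicate 3. With RLE scaling, library totals or 1 fit over all 17 libraries it was 6, and MRPS18B was the member lost.

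MRPL4, whose bacterial counterpart lines the tunnel through which new protein leaves, measured 76.5, 81.7 and 79.1 CPM with siNFYA, 67.1 and 59.4 CPM with siKLF5 and 64.9, 62.7 and 68.4 CPM with control siRNA, all in vehicle. The siNFYA libraries were all above the others. The log2 change of MRPL4 against control was 0.28 (SE 0.059, edgeR adjusted p = 0.00246). MRPS26, a small-subunit protein without a bacterial relative, measured 72.0, 75.5 and 70.5 CPM with siNFYA, 66.4 and 52.7 CPM with siKLF5 and 60.6, 62.0 and 57.0 CPM with control siRNA in vehicle, again with siNFYA on top. Its change was 0.28 (SE 0.061, edgeR adjusted p = 0.00283). MRPS25 measured 58.4, 57.6 and 52.6 CPM with siNFYA and 42.1, 44.8 and 46.9 CPM with control siRNA, a log2 change of 0.34 (SE 0.075, edgeR adjusted p = 0.00361).

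The 4 others were closer to the threshold. MRPL12, the stalk protein that is also known to bind the mitochondrial RNA polymerase, measured 100.3, 100.1 and 98.7 CPM with siNFYA and 84.3, 89.2 and 84.97 CPM with control siRNA in vehicle (log2 0.21, edgeR adjusted p = 0.0175). MRPL23, which in bacteria lies at the exit of the tunnel, changed by 0.26 (edgeR adjusted p = 0.0218). MRPS18B changed by 0.20 (edgeR adjusted p = 0.038) and MRPS27 by 0.17 (edgeR adjusted p = 0.0199). The siNFYA and control libraries did not overlap for any of the 7.

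Of the members with a CCAAT in the 250 bases searched, 2 of 19 were higher with siNFYA in vehicle, and of those without, 4 of 50. Their median log2 changes were 0.02 and 0.03.

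**Figure D3:**
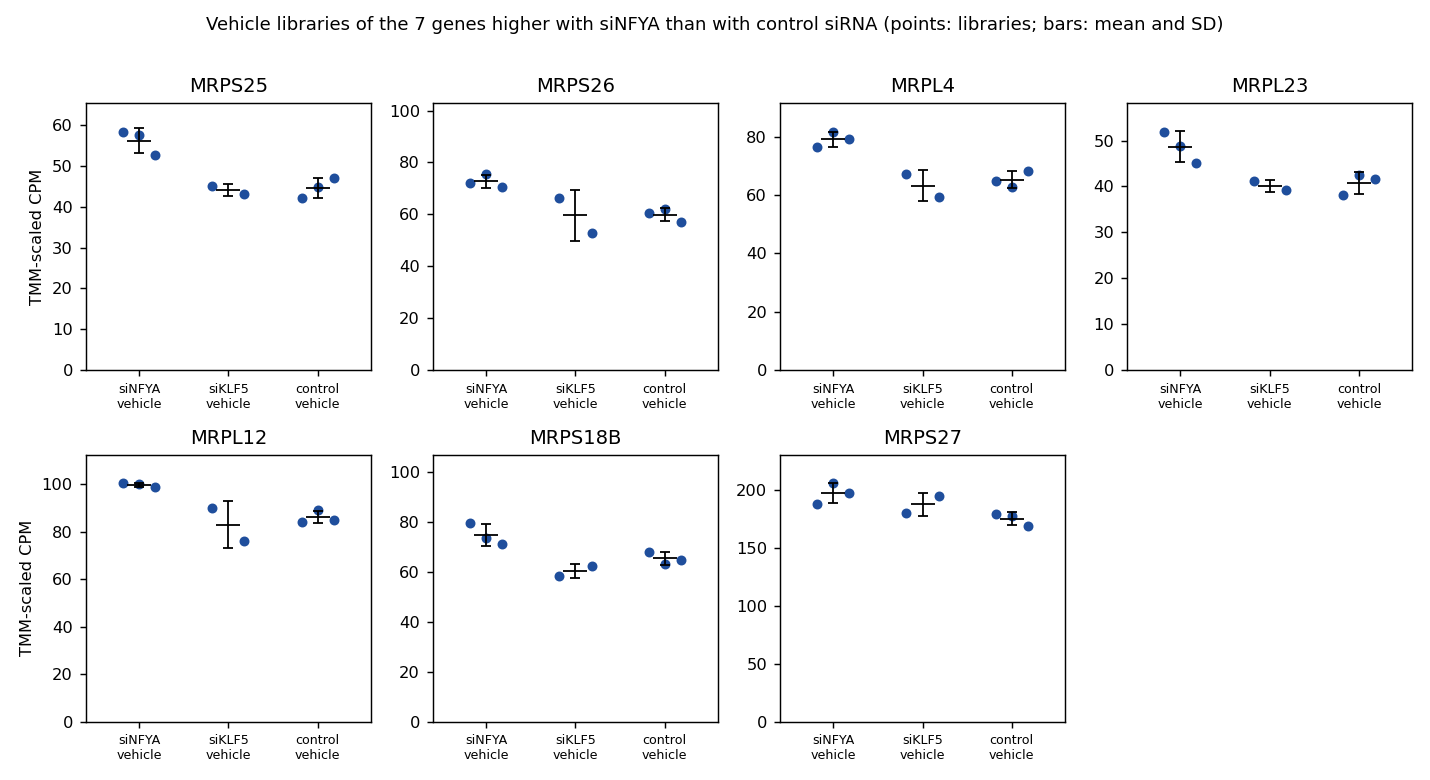
CPM per vehicle library (y axis, TMM scaling over all 17 libraries) of the 7 members that were higher with siNFYA than with control siRNA, for siNFYA, siKLF5 and control siRNA; points are libraries and bars the mean and SD. The siNFYA points lie above all control points for each gene, with MRPL4 at 76.5 to 81.7 CPM against 62.7 to 68.4 CPM.

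With R1881 the siNFYA cells differed from control cells in MRPS10 only (1 of 78 higher and none lower, against 5.98% of all genes, 2.63% higher and 3.34% lower), the counterpart of bacterial S10. MRPS10 measured 41.0, 45.9 and 42.4 CPM with siNFYA and 37.5, 32.6 and 35.2 CPM with control siRNA, without overlap (log2 0.30, SE 0.084, edgeR adjusted p = 0.0325). The call was lost with DESeq2, by limma on TPM, and without control R1881 replicate 2 or 3 or siNFYA R1881 replicate 2, and without siNFYA R1881 replicate 3 the member that passed was MRPS18B.

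No member passed in edgeR's test of siKLF5 against control siRNA, in vehicle (1.32% of all genes passed, 0.77% higher and 0.55% lower) or with R1881 (1.38%, of which 0.832% higher and 0.55% lower). At an unadjusted p under 0.05 there were 4 members in vehicle, all lower, where 12.9% of all genes were under it, and 7 with R1881, 2 higher and 5 lower, where 12.5% were. In vehicle 61 of the 78 changes were negative, with a median log2 change of -0.07, against -0.01 for all genes. Without siKLF5 vehicle replicate 2, MRPL57 alone passed, and lower, in a fit that takes the lone siKLF5 vehicle library to vary like the other groups. The median standard error was 0.08 on the log2 scale, so small changes would not have been seen.

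Set against each other in vehicle, siNFYA cells were higher than siKLF5 cells in 8 members (MRPL4, MRPL12, MRPL23, MRPL39, MRPS12, MRPS18B, MRPS25 and MRPS26) and lower in none, while 5.99% of all genes passed (2.35% higher, 3.64% lower). MRPL4 had the smallest p (log2 0.32, SE 0.066, edgeR adjusted p = 0.00356). This rests on 2 siKLF5 libraries: without siKLF5 vehicle replicate 3, with the lone library likewise taken to vary like the other groups, none passed, without siNFYA vehicle replicate 2 there were 2, without siNFYA vehicle replicate 1 there were 4 and without siNFYA vehicle replicate 3 there were 7. DESeq2 called 3 and limma on TPM none. With R1881 no member passed by edgeR (3.82% of all genes, 1.49% higher and 2.33% lower), 9 had an unadjusted p under 0.05, all higher with siNFYA (16.4% of all genes had one), and without siKLF5 R1881 replicate 1 MRPS18B passed.

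The response to R1881 itself differed between siNFYA and control cells in MRPS26 alone (0.738% of all genes passed this interaction, 0.341% with a higher and 0.397% with a lower response, and 6 members had an unadjusted p under 0.05, as did 12.0% of all genes). MRPS26 measured 86.9, 83.6 and 80.2 CPM with R1881 and 72.0, 75.5 and 70.5 CPM with vehicle in siNFYA cells. In control cells it measured 84.3, 90.04 and 91.8 CPM with R1881 and 60.6, 62.0 and 57.0 CPM with vehicle. The R1881 levels overlapped, and the vehicle levels did not. Its log2 response was 0.20 with siNFYA (edgeR adjusted p = 0.00647) and 0.56 with control siRNA (adjusted p = 7.24e-09), a difference of -0.37 (SE 0.084, adjusted p = 0.0351). The adjusted p of the difference ran from 0.00933 to 0.23 over the other settings and from 0.0181 to 0.111 with 1 library left out, and the call was lost without any single library of these groups except replicate 1 of either R1881 group. DESeq2, library totals, limma on TPM and the fit over all 17 libraries did not make it either. For siKLF5 no member passed in the interaction by edgeR (0.0157% of all genes), and 3 had an unadjusted p under 0.05, as did 6.70% of all genes.

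Genes that work with the mitochondrial ribosome were set beside it, in lists chosen for their roles. In control cells R1881 lowered all 13 mitochondrially encoded mRNAs, with a median log2 change of -0.25 (and all 13 by library totals and by TPM). Against control siRNA these 13 were all higher with siNFYA, with medians of 0.56 in vehicle and 0.90 with R1881, and with siKLF5 11 of them were higher in vehicle (median 0.50) and 13 with R1881 (median 0.86). For both knockdowns the median difference from control was larger with R1881 than in vehicle. The fall with R1881 is therefore given for control cells only and should not be taken to hold in the knockdown arms. The knockdowns share their control libraries in these comparisons, and by limma on TPM none passed with siKLF5 in vehicle. The 7 nuclear-encoded members that passed with siNFYA changed by 0.17 to 0.34 in vehicle.

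Of 5 subunits that carry other names, PTCD3 fell with R1881 in control cells (log2 -0.38, edgeR adjusted p = 5.25e-06), DAP3 fell slightly (-0.11, adjusted p = 0.0463) and GADD45GIP1 rose (0.19, adjusted p = 0.0154). AURKAIP1 and CHCHD1 did not pass, at 0.07 and 0.10. These 5 changes are with TMM scaling, and the sign of small ones depends on the scaling. The mitochondrial rRNAs MT-RNR1 and MT-RNR2 did not enter the tests. Among 28 tested genes for assembly of the ribosome and modification of its rRNA, 7 rose and 5 fell (2 and 18 by library totals). They included MTERF4, which helps target an rRNA methyltransferase, at 1.20, MPV17L2 at 0.75 and METTL15, an rRNA methyltransferase, at -0.85. Among 15 translation factors 2 rose and 5 fell with TMM scaling, and GFM1, the mitochondrial elongation factor G, stood at 1.48.

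For mitochondrial transcription and DNA maintenance, 1 of 14 rose and 7 fell in control cells (1 and 10 by library totals). TFAM, the packaging and transcription factor of mitochondrial DNA, changed by -0.44, MGME1, a mitochondrial exonuclease, by -1.16, and TFB2M, a transcription factor of the organelle, by 0.46. Among 17 tRNA synthetases 4 rose and 3 fell (3 and 10 by library totals), with YARS2 at 0.80 and VARS2 at -0.90. Of 11 regulators of mitochondrial biogenesis 5 rose and 3 fell (2 and 6 by library totals), among them ESRRA at 0.58, GABPB1 at 0.49 and MYC at -0.93. Of 23 import genes 11 rose and 2 fell, a split that turns to 2 and 8 by library totals, and TIMM17A and TIMM23, channel subunits of the inner membrane, stood at 0.88 and 0.67. Of 85 cytosolic ribosomal proteins, 6 were higher and 37 lower (1 and 80 by library totals).

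**Figure D4:**
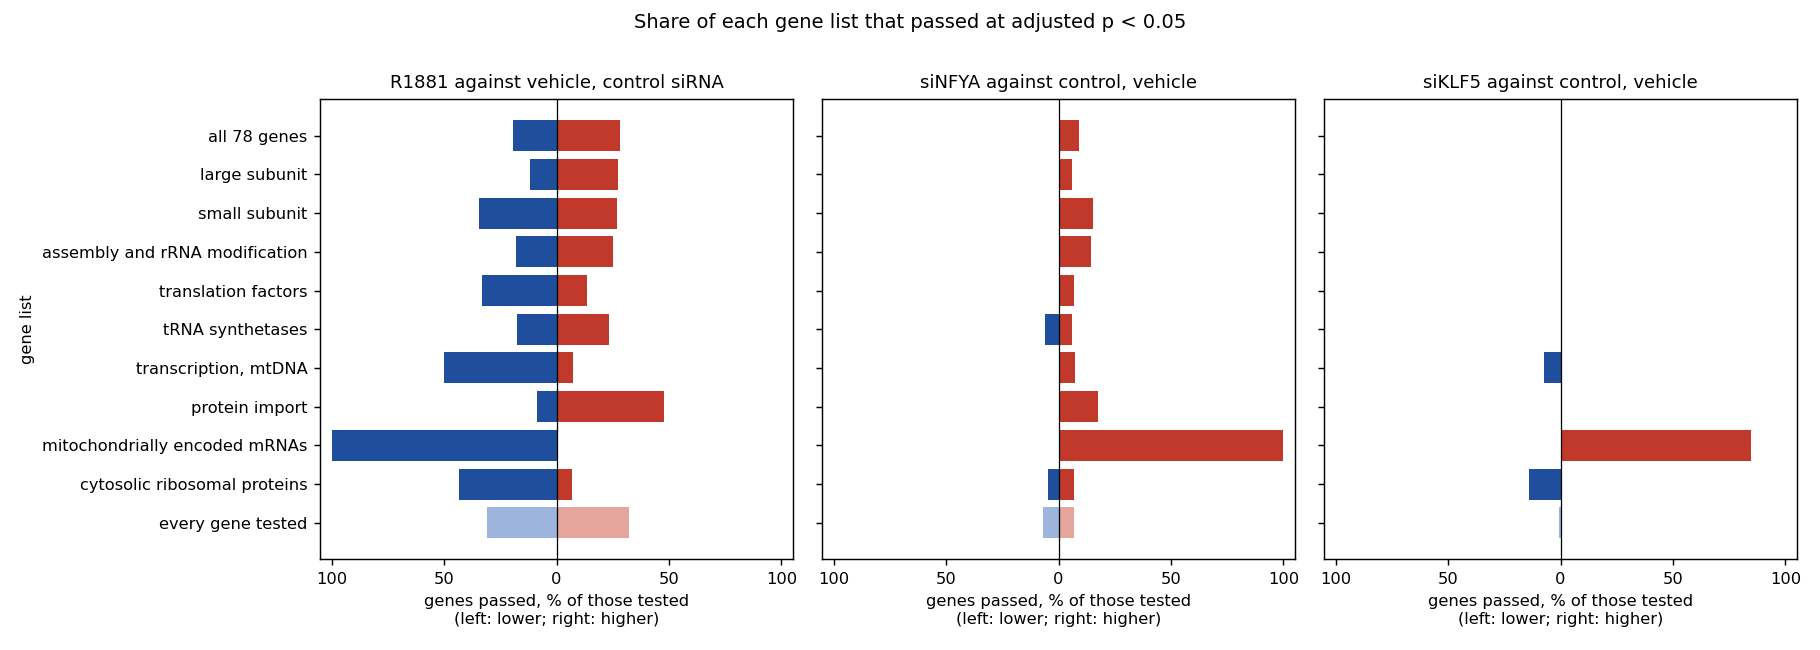
Percent of the tested genes of each list that passed lower (bars to the left) or higher (bars to the right), for R1881 against vehicle in control cells, siNFYA against control siRNA in vehicle and siKLF5 against control siRNA in vehicle (TMM scaling, edgeR), with every gene tested as the last row. Mitochondrially encoded mRNAs are at 100% lower with R1881, 100% higher with siNFYA and 84.6% higher with siKLF5, whereas the 78 members are split with R1881, a split that depends on the scaling (22 higher and 15 lower with TMM, 7 and 45 with library totals).

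In vehicle, siNFYA raised 4 of the 28 assembly genes, 4 of the 23 import genes and 4 of the 11 regulators and lowered none of them. Of all genes tested in that comparison, 6.67% were higher and 6.79% lower. The regulators included MYC (log2 0.33) and ESRRA (0.36). POLRMT, the mitochondrial RNA polymerase, rose by 0.43, and AURKAIP1 by 0.18 (edgeR adjusted p = 0.0313). With R1881 none of these named genes passed between siNFYA and control siRNA. There MYC stood at 0.12, ESRRA at -0.05, POLRMT at 0.04 and AURKAIP1 at -0.07. The import gene HSPA9 was lower with siNFYA and R1881 (-0.12, edgeR adjusted p = 0.0318). With siKLF5 in vehicle (n = 2), 12 of 86 cytosolic ribosomal proteins were lower and none higher. Of all genes tested there, 0.77% were higher and 0.55% lower.

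Many members share a start region with a neighbour read in the opposite direction. Within 1000 bases 29 members had such a protein-coding neighbour, and in 28 pairs both genes were tested, with MRPS11 and MRPL46, which neighbour each other, counted from both sides. With R1881 in control cells both log2 changes had the same sign in 17 of these pairs, and in 8 pairs both genes passed, 6 of them in the same direction. These counts are with TMM scaling, and the sign of small changes depends on the scaling. Other gene pairs were not counted for comparison, and 62.9% of all genes tested passed in this comparison. MRPS27 fell with PTCD2 (log2 -0.57 and -0.36, starts 279 bases apart), MRPL49 rose with FAU (0.59 and 0.22, 290 bases) and MRPL32 with PSMA2, a proteasome subunit (0.26 and 0.25, 23 bases). In the other direction, MRPL51 rose by 0.21 while NCAPD2, a condensin subunit, changed by -0.81, and MRPL43 rose by 0.29 while TWNK, the mitochondrial DNA helicase, changed by -0.26.

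Other neighbours moved far while the member stayed near 0. MRPL30 was at 0.01 and MITD1, whose start is 21 bases away, at 1.67. MRPL27 was at 0.12 and EME1, 6 bases away, at -1.50, while MRPL57 was at 0.01 and SKA3, a kinetochore protein 43 bases away, at -1.30. MRPL13 was at -0.02 and MTBP, 2 bases away, at -0.99. The members in these 4 pairs did not pass in control cells. Several of these genes overlap on opposite strands (MRPS27 with PTCD2, MRPL43 with TWNK, MRPL51 with NCAPD2, MRPL32 with PSMA2). So do MRPL49 with FAU and MRPL13 with MTBP. Overlaps also occur outside these pairs, as of MRPS25 with NR2C2 on the opposite strand. On the same strand MRPL33 overlaps BABAM2 (5725 and 7240 counts over all libraries) and MRPS6 overlaps SLC5A3 (3273 and 6902). Counting by strand would not separate those reads. The labels name a stranded kit but not whether counting used strand, so reads of overlapping genes may not be told apart.

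**Figure D5:**
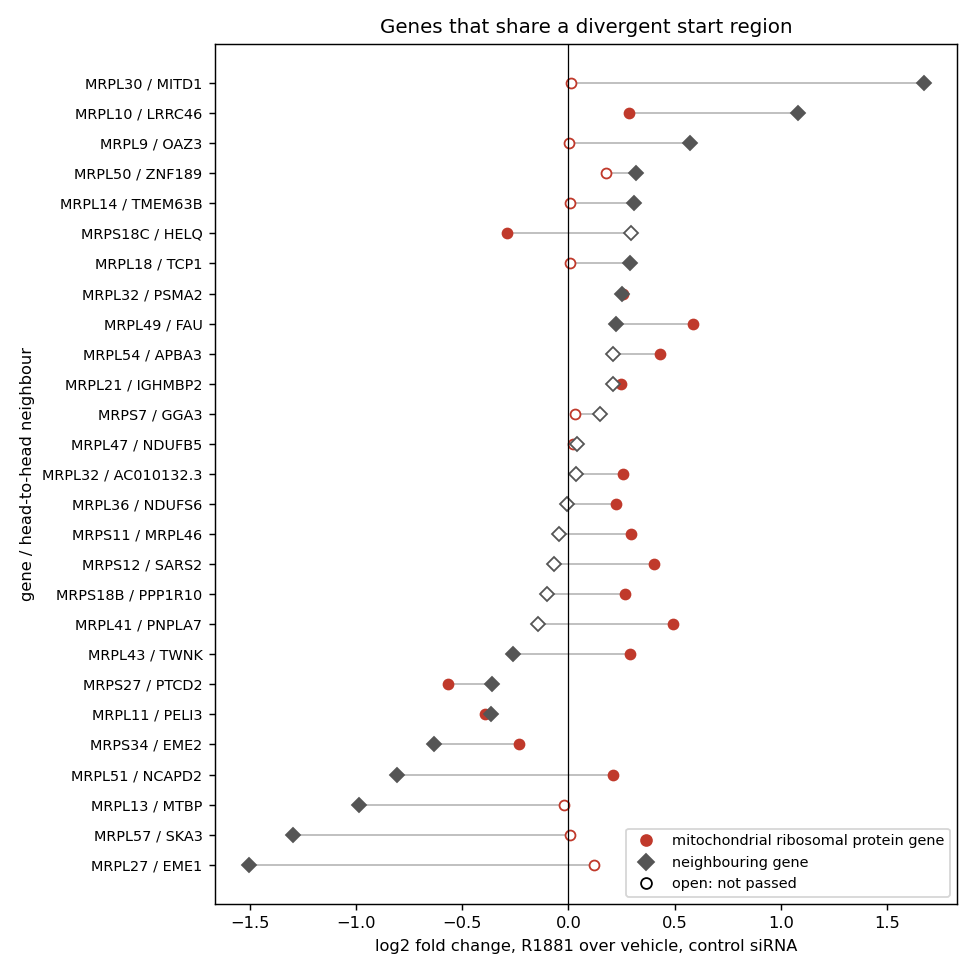
Log2 fold change of R1881 over vehicle in control cells (x axis) of each member (circle) and its neighbour read in the opposite direction from a start within 1000 bases (diamond), joined by a line and filled where the gene passed (TMM scaling, edgeR). MRPL30 with MITD1 (0.01 and 1.67) and MRPL27 with EME1 (0.12 and -1.50) have the longest lines, with the member near 0.

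The transcript tables divide the counts of the 78 genes among 498 transcripts, of which 278 are annotated as protein-coding, 90 as retained introns, 87 as processed transcripts and 43 as targets of nonsense-mediated decay. The share of counts on transcripts that are not protein-coding was 7.33 ± 0.266% with siNFYA and R1881, 7.65 ± 0.394% with siNFYA and vehicle and 6.94 ± 0.332% with siKLF5 and R1881 (SD, n = 3 each). It was 7.22 ± 0.327% with siKLF5 and vehicle (SD, n = 2), 6.17 ± 0.126% with control siRNA and R1881 and 6.63 ± 0.041% with control siRNA and vehicle (SD, n = 3 each). Knockdown libraries were above control libraries of the same treatment without overlap. The differences of siNFYA from control were 1.16 points with R1881 and 1.02 in vehicle, both with exact two-sided permutation p = 0.1, which is the smallest that 3 against 3 allows, and 0.18 after adjustment over 9 comparisons. Retained introns over all genes moved likewise, at 2.87% with siNFYA, 2.59% with siKLF5 and 2.18% with control siRNA in vehicle, beside 2.90%, 2.63% and 2.35% in the members.

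Within single members the share varied widely. In MRPS11 81.1% of counts lay on transcripts not annotated as protein-coding, in MRPL40 47.1%, in MRPS30 36.8% and in MRPL11 34.2%. In 52 of the 78 members it was under 5% of their own counts.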

How the data were processed

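RNA sequencing of 17 LNCaP libraries was analysed. FastQC, Trimmomatic, kallisto, DESeq2 and GRCh38 appear in the submitters' processing notes, and the sources used here give no versions. Per-gene tables deposited by the authors hold an estimated count for each library. Other deposited tables join, per gene and transcript, an estimated count, a TPM and another number that has no name and was left out. The authors' TPM sum to 1000000 per library.

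After rounding to whole numbers, counts were normalised by TMM and, past filterByExpr, were tested by quasi-likelihood in edgeR 4.0.16 (R 4.3.3). The siNFYA with control table (12 libraries) and the siKLF5 with control table (11 libraries) share their control columns and were fitted apart, and siNFYA was set against siKLF5 in 1 fit of all 17 libraries. P-values were adjusted over all genes by Benjamini and Hochberg, with 0.05 as threshold. All 78 members passed the filter. Standard errors are the size of the log2 change divided by the square root of F. Alternatives used DESeq2 1.42.0, limma 3.58.1 on log2(TPM + 1) and log2(TPM + 0.1), RLE and library-total scaling, no filter, only the groups compared, and 1 library left out. Testing every comparison of the siNFYA and siKLF5 tables, interactions included, in a fit over all 17 libraries was added after seeing the data. The edgeR step was tested on simulated data. Library totals of 4416653 to 6872421 counts set the precision.

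Named members are, per comparison, up to 6 rises and 6 falls by log2 change among those past the threshold with a mean of 5 CPM or more, all that passed an interaction or between the knockdowns, and the 3 highest and 3 lowest by TPM. Other members named were chosen after their values were seen. Members and gene lists were chosen with earlier results of these data known. A few checks involving other genes are not reported here. Promoters are RefSeq's (GRCh38.p14). Tables and figures used Python 3.11.15, pandas 2.3.3, numpy 2.4.6 and matplotlib 3.10.9.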

Additional observations from a re-analysis of the deposited data

Results flagged for a closer look

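The response of MRPS26 to R1881 differed between siNFYA and control cells by the test of the difference itself, with a log2 difference of -0.37 (SE 0.084, edgeR adjusted p = 0.0351). The response was 0.20 with siNFYA and 0.56 with control siRNA, and under each siRNA every R1881 library was above every vehicle library. The call was lost with DESeq2, library totals, limma on TPM and the fit over all 17 libraries, and without any single library of these groups except replicate 1 of either R1881 group.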

How the results depend on the processing

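No paired analysis was possible because no replicate number is shared between libraries in the labels. Counts of members that passed with R1881 moved by less than 1.5 times under every alternative except in their split of directions, which turned with library totals and TPM. With siNFYA against control siRNA in vehicle, DESeq2 called 3 members and limma on TPM 2 with either pseudocount, against 7, and with R1881 the counts were 0 with DESeq2, 0 by limma on TPM and 2 with only the groups compared, against 1. The interaction of siNFYA with R1881 had 0 members with library totals, DESeq2, limma on TPM and the added fit over all 17 libraries. Between siNFYA and siKLF5 in vehicle DESeq2 called 3, limma on TPM 0 and the fit of only the groups compared 2, against 8, and with R1881 the fit with no filter called 1. With 1 library left out, the R1881 counts ran from 32 to 39 (siNFYA), 30 to 33 (siKLF5) and 31 to 35 (control), siNFYA against control from 3 to 6 in vehicle and 0 to 1 with R1881, siKLF5 against control from 0 to 1 in vehicle and stayed at 0 with R1881, the siNFYA interaction from 0 to 1, and siNFYA against siKLF5 from 0 to 7 in vehicle and 0 to 1 with R1881. The log2 change of the summed level with R1881 (siNFYA, siKLF5, control) was -0.149, -0.117 and -0.154 by library totals, 0.0761, 0.115 and 0.0851 with TMM, and -0.0578, -0.0559 and -0.0529 in TPM. In R1881 the TPM sum differed by 0.00136 with siNFYA and -0.039 with siKLF5, against 0.0355 and -0.00692 by library totals. Leaving out 1 library gave -0.173 to -0.132 (siNFYA), -0.138 to -0.0954 (siKLF5) and -0.161 to -0.15 (control). The share of counts off protein-coding transcripts differed by -0.275 points with R1881 in siKLF5 cells and by 0.127 as a mean of per-gene shares. The cause of these shifts was not tested. Results of members named by the naming rule were counted per comparison, so a member can count more than once. Of these results 42 kept their side of the threshold with DESeq2 and 10 lost it. The counts were 36 and 16 with limma on TPM, and 47 and 5 with library totals, with no change of sign.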
